A study of Mus musculus with 8 samples.

Results

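The genes described here are 10 members of the N6-methyladenosine (m6A) pathway, out of 21853 protein-coding genes on the assembled mouse chromosomes. They are *Mettl3*, *Mettl14*, *Wtap*, *Virma*, *Rbm15*, *Rbm15b* and *Zc3h13* of the writer complex, the erasers *Fto* and *Alkbh5*, and the reader *Ythdf2*. The list was drawn from known function, and each gene was represented by the body of its protein-coding transcript with the most exon bases in GENCODE M21. H3K36me3 over these bodies was read from the broad-peak lists of 4 ChIP–seq libraries. The cells were i4F MEFs, fibroblasts from E13.5 mouse embryos (embryonic day 13.5) with a doxycycline-inducible cassette for OCT4, SOX2, KLF4 and MYC, the OSKM factors of reprogramming. All 4 libraries came from 1 embryo, called Clone 1 in the labels, after 72 h in iPSC medium. MEF cells received neither doxycycline nor added vitamin B12, MEF B12 cells received 2 µM vitamin B12, OSKM cells received doxycycline, and OSKM B12 cells received both. The sample labels give the dose of doxycycline as 1 µg/mL and the study's methods give 1 mg/ml. There was 1 H3K36me3 library and its input for each condition, so the differences below could not be checked against replicates and carry no p-values. Doxycycline and the factors it induced were present together and cannot be told apart in these libraries.

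m6A is the most common internal modification of messenger RNA, and METTL3 transfers the methyl group from S-adenosylmethionine (SAM). METTL14 holds the RNA substrate beside METTL3 and can bind H3K36me3, which is deposited by SETD2, also from SAM, along transcribed gene bodies. Vitamin B12 is a cofactor of methionine synthase, which feeds the SAM pool. The measurement below is the mark on the genes that encode the m6A machinery and not m6A itself. The transcript levels of these genes and m6A were not analysed here.

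Between 29046913 and 33399267 H3K36me3 tags remained per library after the authors' filtering, and the lists held 65473 to 69420 peaks on the assembled chromosomes. The covered share is the percentage of a gene body inside peaks. The density is the authors' pileup (the mean number of extended fragments over a peak), scaled to 1000000 H3K36me3 tags, summed over the bases of the body in peaks and divided by the length of the body. A gene was called marked when peaks covered at least 10% of its body in at least 1 library. This held for 9959 genes and for 10 of the 10 members, although *Fto* passed only in MEF B12 and OSKM B12. Changes are given as log2 of density + 0.05, and their ranges (95%) cover the counting error of the tags in peaks only, not the variation between cultures or immunoprecipitations.

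In MEF, peaks on the writer genes began inside the body and reached the 3′ end, except that *Rbm15b* also had a peak over its first 18 bases. The sequences that follow show where the mark began on *Mettl3*, which kept its covered share in OSKM, and on *Mettl14*, which lost most of it. They were read from GRCm38.p6, are given 5′ to 3′ on the coding strand (the minus strand in each case), and were chosen after the values were seen. For *Mettl3*, chr14:52300302-52300551 is the end of intron 1 in lower case and the first 100 bases of coding exon 2 in capitals. For *Mettl14*, chr3:123381230-123381429 is intronic, and the 100 bases in capitals lay in peaks of all 4 libraries, whereas the 100 bases in lower case lay in peaks of every library except OSKM.
Mettl3 5′ edge: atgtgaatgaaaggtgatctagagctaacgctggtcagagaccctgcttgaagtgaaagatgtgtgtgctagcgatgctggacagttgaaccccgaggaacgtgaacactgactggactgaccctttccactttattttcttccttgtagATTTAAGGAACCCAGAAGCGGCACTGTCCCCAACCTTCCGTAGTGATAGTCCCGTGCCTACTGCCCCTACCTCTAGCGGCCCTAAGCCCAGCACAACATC
Mettl14 5′ edge: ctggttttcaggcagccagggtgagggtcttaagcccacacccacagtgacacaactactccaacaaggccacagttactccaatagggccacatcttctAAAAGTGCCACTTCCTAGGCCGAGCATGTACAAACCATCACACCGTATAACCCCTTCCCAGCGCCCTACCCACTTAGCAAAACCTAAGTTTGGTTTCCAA

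The *Mettl3* peak began within 337 bases of the same place in all 4 libraries. Its first covered base lay 4571 bases from the transcription start site (TSS) in MEF and 4346 in MEF B12, compared with 4437 in OSKM and 4683 in OSKM B12. Exon 2 starts at base 4727, so each edge was 44 to 381 bases upstream of it. The long first intron carried no peak before that edge. The core m6A motif was searched as GGACT on both strands. It occurred 1 time on each strand of the *Mettl3* edge sequence and 0 times on either strand of the *Mettl14* edge sequence. The coding sequences shown further below held it 0 times. Of 1787 windows of 250 bases across the member bodies, 33.4% held it on at least 1 strand. On *Mettl14*, the first covered base lay 3890, 3539, 4602 and 3500 bases from the TSS in the same order.

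For each gene, 132 coding bases around the catalytic motif or its counterpart are shown because both stretches stayed inside OSKM peaks. They do not stand for the whole catalytic core, whose other exons were not examined as a set. On the *Mettl14* transcript used for the gene body, OSKM peaks touched 1 of 7 exons. The 12 bases in capitals are the 4 codons of the catalytic motif of METTL3 in exon 6 of 11 (chr14:52297521-52297652), and the 4 codons at the corresponding place of METTL14, which is not itself catalytic, in exon 7 of 11 of its longest-spanning transcript (chr3:123374745-123374876).
Mettl3 motif codons: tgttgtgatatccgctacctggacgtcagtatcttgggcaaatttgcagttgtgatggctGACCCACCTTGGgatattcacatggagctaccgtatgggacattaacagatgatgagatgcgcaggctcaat
Mettl14 motif codons: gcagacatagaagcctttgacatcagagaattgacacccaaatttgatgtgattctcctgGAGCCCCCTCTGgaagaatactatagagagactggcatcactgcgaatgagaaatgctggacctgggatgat

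All 132 bases of the *Mettl3* sequence were in peaks of all 4 libraries. For *Mettl14*, 132 of 132 bases were in peaks of MEF B12, OSKM and OSKM B12, and 130 in MEF.

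*Mettl3* encodes the catalytic subunit and spans 10.3 kb (chr14:52294841-52305128, minus strand, 11 exons). Peaks covered 55.6% of its body in MEF and 57.8% in MEF B12, and 51.9% in OSKM and 54.5% in OSKM B12. Its density was 0.375, 0.429, 0.255 and 0.426 in the same order. The body therefore stayed covered in OSKM while the pileup within its peaks was lower, at 0.491 per 1000000 tags against 0.675 in MEF. The log2 change of density from MEF to OSKM was −0.48 (−0.66 to −0.30), short of the 1.5-fold used to call a change, and from OSKM to OSKM B12 it was 0.64 (0.46 to 0.82). That change fell short of 1.5-fold over bases in no other protein-coding gene (0.46), with pileup not divided by tags (0.49) and with a constant of 0.2 (0.46). Of the bases covered in MEF, 91.0% were still in OSKM peaks, against 57.6% over all marked genes. In MEF, MEF B12 and OSKM B12 the gene was covered by 1 peak of 15.2 to 15.8 kb that ran 9.47 to 9.86 kb past its 3′ end along *Tox4*, a convergent gene that overlaps 1561 bases (15.2%) of the *Mettl3* body. The pileup given to *Mettl3* in those libraries was thus an average over both genes, and with peaks counted only where at least 50% of their bases lay in the body, *Mettl3* would keep a peak in OSKM alone. In OSKM, 2 separate peaks ended before the end of the gene, and *Tox4* was covered over 45.5% of its body against 69.5% in MEF.

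*Mettl14* encodes the RNA-binding partner of METTL3 and spans 17.6 kb (chr3:123368297-123385931, minus strand). Its covered share was 48.9% in MEF and 53.4% in MEF B12, against 17.6% in OSKM and 44.1% in OSKM B12. The lowest of these, in OSKM, was 26.4 percentage points below the next. Its density was 0.259, 0.286, 0.0727 and 0.270, and the log2 change from MEF to OSKM, −1.33 (−1.50 to −1.16), was the lowest of the 10 members. From OSKM to OSKM B12 it was 1.38 (1.21 to 1.56), second to *Rbm15b*. The number of peaks hardly differed, at 6, 6, 6 and 7, but the longest covered run was 2427 bases in MEF and 3813 in MEF B12, compared with 936 in OSKM and 2568 in OSKM B12. The OSKM peaks were islands within the MEF pattern, since 97.5% of their bases were also covered in MEF and 100.0% in OSKM B12. Of the MEF bases, 35.2% remained covered in OSKM, and 50.4% of the bases missing in OSKM were covered in OSKM B12. The 3′ peak ran into *Sec24d* and was 27.6 kb long in MEF and 27.7 kb in OSKM B12, whereas in MEF B12 it was 4.56 kb long. In MEF, 5.17% of the bases of this 3′ peak lay in *Mettl14*, so its pileup was mostly an average over bases outside the gene. The densities in MEF and OSKM B12, and the rank of *Mettl14* among the members, depend in part on that average. With peaks counted only where at least 50% of their bases lay in the body, the 3′ peak would drop out of both libraries. The log2 changes between them and OSKM would then be smaller. The covered share does not depend on such averages.

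**Figure D1:**
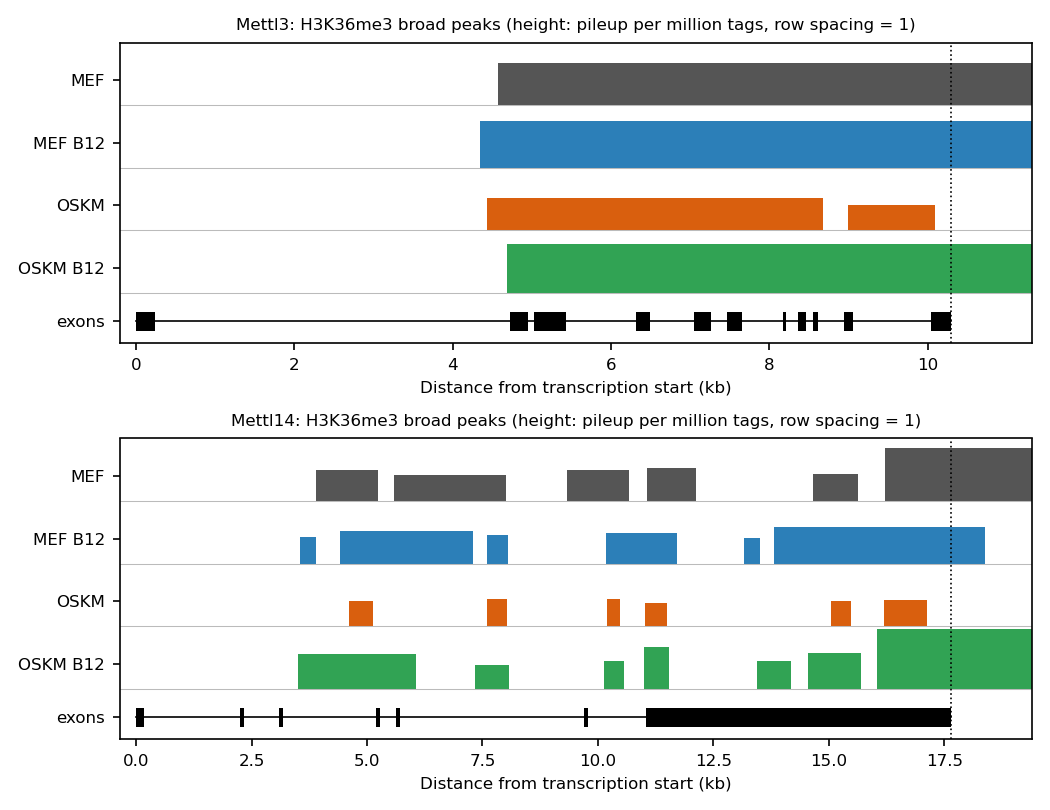
Broad peaks over *Mettl3* (top) and *Mettl14* (bottom), drawn against distance from the TSS in kb. Each row is 1 library, the height of a block is the pileup per 1000000 tags (1 unit equals the row spacing), black boxes are exons of the transcript used, whose last *Mettl14* exon includes a retained intron, and the dotted line is the gene's end. *Mettl3* had a peak from 4346 to 4683 bases onwards in each library, while the *Mettl14* peaks of OSKM were short islands of at most 936 bases.

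Over the bases that were in peaks of all 4 libraries, both genes had similar ratios. There were 5090 such bases on *Mettl3*, where the scaled pileup in OSKM was 0.726 of that in MEF, and 3032 on *Mettl14*, where it was 0.701. The same ratio was 0.771 over all members and 0.754 over all marked genes. The ratio of OSKM B12 to OSKM over these bases was 1.59 for *Mettl3* and 1.60 for *Mettl14*, beside 1.57 over marked genes. These ratios are not free of neighbours, because the *Mettl3* peak outside OSKM ran along *Tox4*. On *Mettl14*, the shared bases include part of the 3′ peak that ran into *Sec24d* in MEF and OSKM B12. Before scaling, its pileup was 27.8 in MEF and 28.2 in OSKM B12, against 13.9 in the last OSKM peak. The other *Mettl14* peaks of MEF had 13.5 to 17.4, so the likeness to *Mettl3* rests in part on that peak. The covered share differed more between the 2 genes, with a ratio of OSKM to MEF of 0.361 on *Mettl14* and 0.933 on *Mettl3*. That share depends on which bases passed the peak cut-off, and the *Mettl3* peak of MEF had a higher pileup (22.0) than those other *Mettl14* peaks.

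*Wtap*, the regulatory subunit that brings the complex to nuclear speckles, was covered over 57.8% of its body in MEF and 64.4% in MEF B12, and 46.8% in OSKM and 64.3% in OSKM B12. Its density of 0.359, 0.442, 0.218 and 0.458 gave a log2 change of −0.61 from MEF to OSKM and 0.92 from OSKM to OSKM B12. The largest covered run of the gene was still 6851 bases long in OSKM, against 8351 in MEF and 10453 in OSKM B12. Next to *Mettl3*, *Wtap* kept the highest share of its MEF bases in OSKM, 79.4%.

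*Virma*, the large scaffold of the complex, was the most covered writer gene outside OSKM, where *Mettl3* and *Wtap* were covered more. Its body of 64.6 kb was in peaks over 75.7% in MEF and 76.8% in MEF B12, against 44.7% in OSKM and 79.7% in OSKM B12. The density was 0.461, 0.521, 0.215 and 0.535, which is a log2 change of −0.95 from MEF to OSKM and 1.14 from OSKM to OSKM B12. In OSKM the mark was broken up, with 24 peaks against 11 in MEF, 9 in MEF B12 and 10 in OSKM B12. The longest covered run was 4401 bases in OSKM and 27131 bases, or 42.0% of the gene, in OSKM B12.

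The RNA-binding subunits *Rbm15* and *Rbm15b* have few exons (2 and 1) and bodies under 10 kb. *Rbm15* was covered over 35.6%, 48.3%, 17.7% and 32.1% of its body in MEF, MEF B12, OSKM and OSKM B12, with densities of 0.228, 0.325, 0.0881 and 0.247. It was the member with the fewest estimated tags in peaks, 84 in OSKM and 210 in MEF, so its log2 change of −1.01 from MEF to OSKM has a wide counting range of −1.26 to −0.76. *Rbm15b* was covered over 64.4%, 67.7%, 34.1% and 72.1%, with densities of 0.345, 0.425, 0.131 and 0.468. Its log2 change from OSKM to OSKM B12, 1.52 (1.26 to 1.77), was the highest of the members. Outside OSKM its 3′ peak ran 7.14 to 7.28 kb past the gene into *Dcaf1*, with 36.7% to 39.2% of its bases in *Rbm15b*. The pileup of *Rbm15b* too was thus averaged with neighbouring chromatin, and the same stricter rule would leave the gene a peak in OSKM alone.

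*Zc3h13*, which anchors the complex in the nucleus, spans 60.1 kb and was covered over 33.4% in MEF and 34.2% in MEF B12, compared with 15.4% in OSKM and 32.8% in OSKM B12. The mark sat past the midpoint of the gene, where 59.5% of bases were covered in MEF against 7.27% before it. In OSKM the covered share was 29.6% past the midpoint and 1.11% before it, and the first covered base lay 28390 bases from the TSS, compared with 9617 to 9870 in the other libraries. The log2 change of density was −0.89 from MEF to OSKM and 0.99 from OSKM to OSKM B12.

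The erasers stood far apart. By density, *Alkbh5* ranked between 1 and 4 among the 10 members, depending on the library, and *Fto* ranked 10 in each. *Alkbh5*, an RNA demethylase, was covered over 74.2% of its 20.5 kb in MEF and 70.2% in MEF B12, and 42.0% in OSKM and 77.4% in OSKM B12, with densities of 0.459, 0.534, 0.202 and 0.569. Its log2 changes were −1.01 from MEF to OSKM and 1.30 from OSKM to OSKM B12. The strongest peak over any member was on *Alkbh5* in OSKM B12, with a MACS2 fold enrichment over input of 5.79. In OSKM the only member peak to reach a −log10 q of 5 was also on *Alkbh5*. A short, weak OSKM peak of 288 bases (−log10 q of 1.31, fold enrichment of 2.35) lay across its annotated TSS, with 89 bases in the body. None of the other libraries had a peak there.

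*Fto*, the other demethylase and by far the longest gene of the list at 213 kb, was covered over 9.20%, 11.3%, 4.07% and 12.2% in MEF, MEF B12, OSKM and OSKM B12. Its densities of 0.0396, 0.0511, 0.0173 and 0.0579 were among the lowest, and 5.34% to 11.6% of marked genes had a lower one. The density in OSKM was 0.438 times that in MEF (0.390 to 0.491), and in OSKM B12 it was 3.34 times that in OSKM (2.99 to 3.72). Because the constant of 0.05 is close to these densities, the log2 changes were smaller, −0.41 and 0.68. *Fto* was covered by 21, 20, 12 and 25 peaks with median covered runs of 611 to 737 bases. Bases called in a single library made up more of it than of marked genes in each library. Of all bases called on it, 23.1% were called in OSKM B12 alone, against 6.35% over marked genes. For MEF B12 alone the shares were 18.5% and 6.24%, for MEF alone 9.99% and 3.94%, and for OSKM alone 2.14% and 0.706%. Its longest-spanning transcript reaches 355 kb, over which the covered share was 6.48%, 7.50%, 2.88% and 8.45%.

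*Ythdf2*, a cytoplasmic reader that leads m6A-bearing transcripts to decay, was covered over 45.7% in MEF and 66.0% in MEF B12, against 24.1% in OSKM and 51.4% in OSKM B12. Its densities were 0.219, 0.362, 0.0962 and 0.281. It was the only member past 1.5-fold between MEF and MEF B12, with a log2 change of 0.61 (0.49 to 0.73), and its covered share was 20.3 percentage points higher in MEF B12. As a ratio the covered share was 1.45 times higher, short of 1.5-fold. From MEF to OSKM the log2 change was −0.88 and from OSKM to OSKM B12 it was 1.18.

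**Figure D2:**
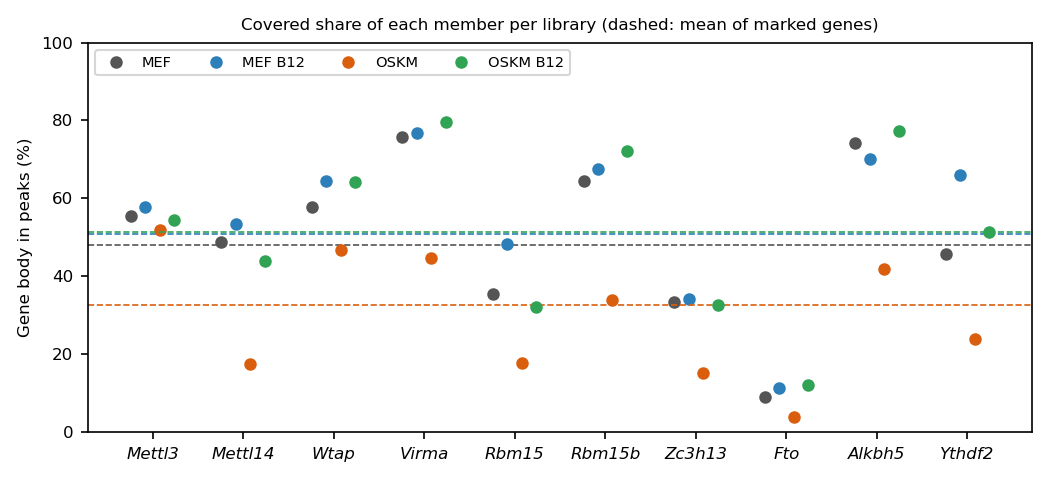
Percentage of each gene body in peaks (y axis) for the 10 members (x axis), 1 point per library, with a dashed line for the mean of the 9959 marked genes in that library. OSKM is the lowest of the 4 points for each of the 10 genes, closest to the others on *Mettl3* (51.9% against 54.5% to 57.8%) and far below them on *Mettl14* (17.6% against 44.1% to 53.4%).

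Read across the list, OSKM had the lowest covered share of the 4 libraries on 10 of 10 members, as it did on 90.6% of marked genes. The density was at least 1.5-fold lower in OSKM than in MEF for 8 of 10 members, beside 67.6% of marked genes, with *Mettl3* and *Fto* the exceptions on the scale of log2(density + 0.05). Without the constant, the density of *Fto* was also past 1.5-fold, at 0.438 of that in MEF. The median log2 change was −0.92 over the members and −0.71 over marked genes, so relative to the median gene 7 of 10 members were lower, and *Mettl3*, *Wtap* and, with the constant, *Fto* were higher. Only 5.97% of marked genes had a lower log2 change than *Mettl14*, and 80.4% had a lower one than *Mettl3*. With vitamin B12 during reprogramming, the density was at least 1.5-fold higher than in OSKM for 10 of 10 members, where 93.6% of marked genes passed the same fold, and the medians were 1.12 (members) and 0.98 (marked genes). Both comparisons use the OSKM library, so a low value in that library enters each of them. With the libraries scaled to an equal median density over marked genes, *Mettl14* alone was still 1.5-fold lower in OSKM (11.8% of marked genes), *Mettl3* and *Wtap* were higher there (log2 0.43 and 0.29), and 0 of 10 members were 1.5-fold higher in OSKM B12 (11.5% of marked genes). The *Mettl14* density in MEF includes the 3′ peak averaged with *Sec24d*. Whether *Mettl14* would pass under equal medians without that peak was not tested. Over bases called in all 4 libraries, 0 of 10 were 1.5-fold lower in OSKM, beside 2.95% of the 9107 marked genes with such bases, and 5 of 10 were 1.5-fold higher in OSKM B12, beside 38.9%.

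Without reprogramming, vitamin B12 was accompanied by smaller differences. The density was at least 1.5-fold higher in MEF B12 than in MEF for 1 of 10 members, beside 4.78% of marked genes, and the median log2 change was 0.21 both for the members and for marked genes. OSKM B12 was set against MEF to see how close the supplemented cells came to unreprogrammed ones. Of the 10 members, 0 were 1.5-fold higher in OSKM B12, beside 8.88% of marked genes, and 0 were 1.5-fold lower, beside 1.09%. The log2 changes lay between 0.05 for *Mettl14* and 0.39 for *Rbm15b*, with a median of 0.23 against 0.26 for marked genes. Between MEF B12 and OSKM B12 the member median was 0.01, and the 2 lowest values were those of *Rbm15* (−0.34) and *Ythdf2* (−0.31), the genes with the highest log2 change from MEF to MEF B12. The MEF B12 library is used in both of these comparisons, so a high value in it raises the one and lowers the other.

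**Figure D3:**
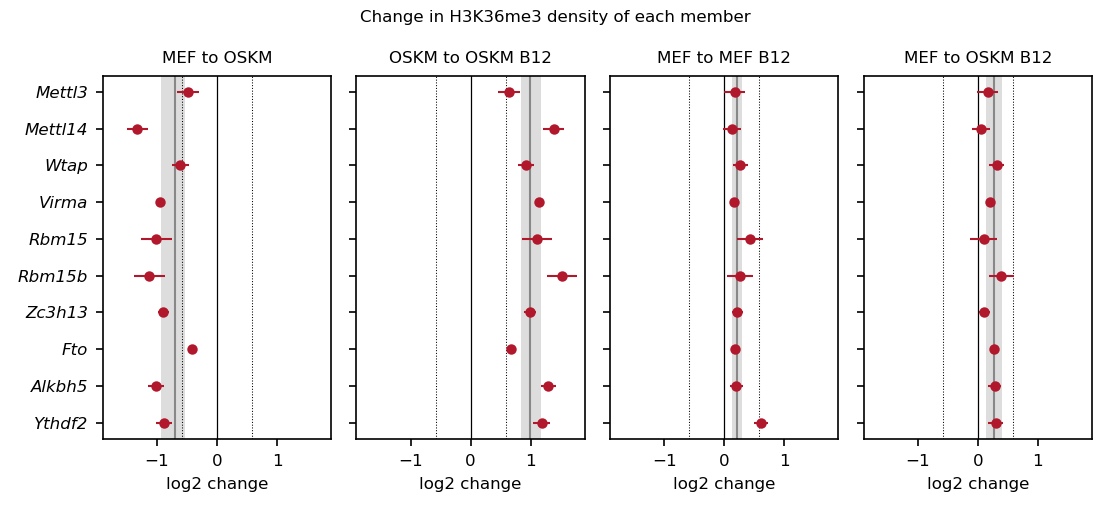
Log2 change of density (x axis) of each member in 4 comparisons, each named from the first library to the second. Points are values, bars their 95% counting range, the grey band the middle 50% of the 9959 marked genes with its median as a grey line, and dotted lines mark 1.5-fold. In the comparison of MEF with OSKM, *Mettl14* lies left of the band at −1.33 and *Fto* right of it at −0.41, and in OSKM B12 against MEF all members lie within 1.5-fold.

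A lower density can come from fewer covered bases or from a lower pileup in them, and the members differed in the mix. Called peaks alone enter both ratios, so a weak peak can drop out of a list where a strong one only loses pileup. Before scaling, the mean pileup in peaks was 22.0 in MEF and 16.4 in OSKM on *Mettl3*, and 14.0 and 14.2 on *Fto*. How far the peak cut-off shaped the mix was not tested. From MEF to OSKM, the ratio of covered shares ran from 0.361 on *Mettl14* to 0.933 on *Mettl3*, and the ratio of mean pileup in peaks from 0.719 on *Rbm15b* to 0.989 on *Fto*. From OSKM to OSKM B12, the covered share was 1.05 times higher on *Mettl3* and 3.00 times higher on *Fto*, with pileup ratios of 1.59 and 1.11. The input level under the member peaks, worked back from pileup and fold enrichment, was 4.14 to 6.56 fragments in MEF and 3.98 to 4.76 in MEF B12, compared with 4.02 to 5.71 in OSKM and 3.91 to 4.96 in OSKM B12.

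**Figure D4:**
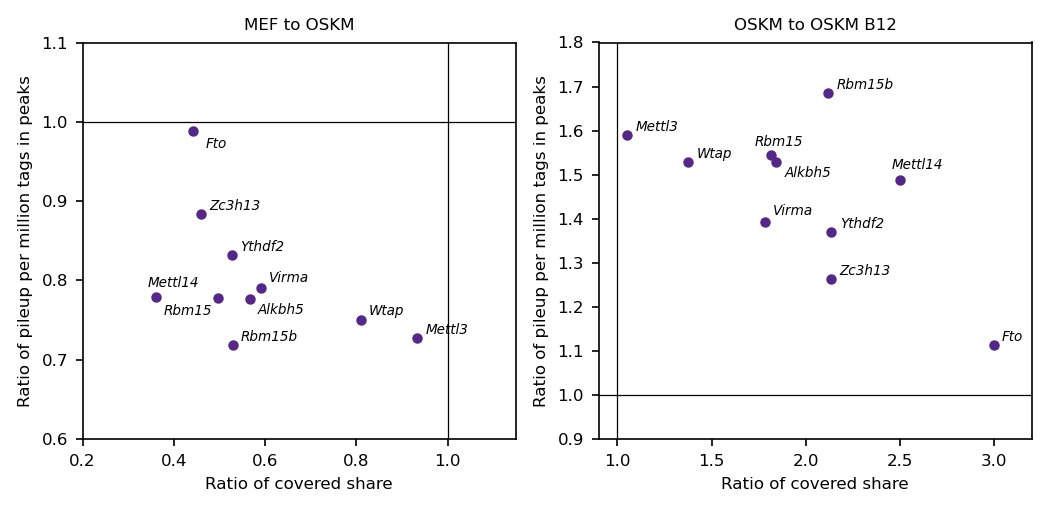
Ratio of covered shares (x axis) and ratio of mean pileup per 1000000 tags within peaks (y axis) for each member, from MEF to OSKM (left) and from OSKM to OSKM B12 (right), with lines at a ratio of 1. *Mettl3* changed almost only along the pileup axis (0.728 on the left) and *Fto* almost only along the axis of covered share (0.443 on the left). Both axes count called peaks only, so they depend on the peak cut-off.

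The number of peaks on the members did not follow the covered bases. There were 72 peaks over 149 kb of the members in MEF and 64 over 163 kb in MEF B12, and 76 over 83.3 kb in OSKM and 79 over 160 kb in OSKM B12. The covered bases per peak were thus 2070, 2547, 1096 and 2030 in the same order, beside 2390, 2609, 1440 and 2530 on marked genes. Peaks that reached a −log10 q of 5 numbered 15, 18, 1 and 17 on the members. Over the whole lists, peaks of that strength were 15%, 17.7%, 3.31% and 19.1% of all peaks.

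The OSKM peaks lay mostly inside the MEF pattern. Of the member bases in OSKM peaks, 92.3% were also covered in MEF and 93.8% in OSKM B12, beside 93.3% and 95.5% for marked genes. The share also covered in MEF was lowest on *Fto* (75.2%) and *Ythdf2* (78.9%). Of the member bases in MEF peaks, 51.6% were covered in OSKM, and 74.8% of the bases missing in OSKM were covered in OSKM B12, beside 76.0% for marked genes. The share of missing bases that were covered in OSKM B12 was 100.0% on *Mettl3* and *Wtap*, 99.1% on *Rbm15b* and 93.9% on *Virma*, and it was 50.4% on *Mettl14*, 55.8% on *Ythdf2* and 58.5% on *Fto*. Conversely, 19.7% of member bases in OSKM B12 peaks were not covered in MEF, highest on *Fto* (46.3%) and *Ythdf2* (37.7%). On *Ythdf2*, 82.0% of those extra bases were also covered in MEF B12, whereas on *Fto* 22.7% were.

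H3K36me3 typically builds up towards the 3′ end of genes and is higher over exons, and the members followed this layout. The body was covered more past its midpoint than before it on 8 of 10 members in MEF, MEF B12 and OSKM and on 7 of 10 in OSKM B12, beside 83.2% to 89.2% of marked genes. *Rbm15* and *Ythdf2* were the exceptions in each library, joined by *Fto* in OSKM B12. Averaged over the members, the last of 10 equal parts of the body was covered over 83.8% in MEF and 86.9% in MEF B12, against 59.5% in OSKM and 81.0% in OSKM B12, and the first part over at most 7.31%. Among the 8 members with introns other than *Mettl14*, whose transcript retains an intron, exons were covered more than introns on 8 in MEF and OSKM and on 7 in MEF B12 and OSKM B12, beside 75.8% to 79.8% of marked genes. Their mean exon coverage was 71.4% in MEF and 54.2% in OSKM, and their mean intron coverage 43.2% and 25.4%, where marked genes had 65.2% and 47.5% over exons and 44.1% and 29.2% over introns.

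**Figure D5:**
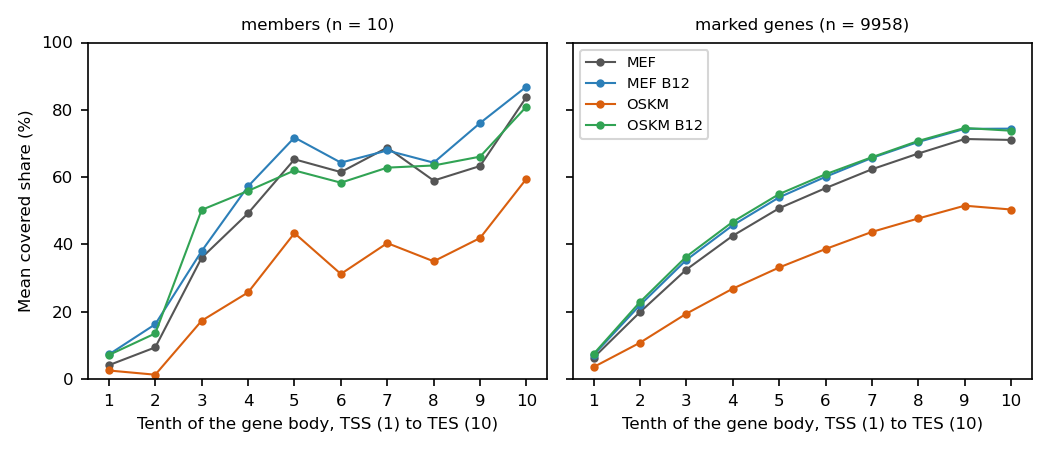
Mean covered share (y axis, percent) in 10 equal parts of the gene body from TSS to transcription end site (TES) for the 10 members (left) and for marked genes of at least 100 bases (right), 1 line per library. In both panels the OSKM line runs below the other 3 from the first part to the last, where it reached 59.5% on the members and 50.4% on marked genes.

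Peaks also crossed the 3′ end of fewer genes in OSKM. A single peak ran across the 3′ end of 9 of 10 members in MEF, MEF B12 and OSKM B12, with *Fto* the exception, but of 1 of 10 in OSKM, where *Alkbh5* alone had such a peak. Among marked genes the shares were 62.5% in MEF and 66.2% in MEF B12, compared with 40.8% in OSKM and 64.5% in OSKM B12. Among the members crossed in MEF but not in OSKM, the OSKM peaks stopped at different distances from the end. Counted from the TSS, the last covered base was closest on *Wtap*, 19486 in OSKM against 19507 in MEF. It was farthest on *Ythdf2*, 26797 against 27391. OSKM peaks covered 45.5% of *Tox4* (17.3 kb), which shares 1561 bases with *Mettl3*, and 64.8% of *Sec24d*, past the end of *Mettl14*. Peaks thus lay past the end of these genes in OSKM, at distances that were not examined. Whether OSKM peaks resumed past the end of the other members was not examined. The crossing of the 3′ end was chosen after the values were seen. At the other end, few members had a peak. RefSeq promoter windows (GRCm38.p6, from 250 bases before to 50 bases after the start) were given for 8 of the members, 11 windows in all, and 0 of the 11 shared a base with a peak in any library, beside 2.61% to 3.30% of windows of marked genes. The short OSKM peak on *Alkbh5* lay downstream of its RefSeq window. On *Rbm15b*, a peak from upstream crossed the GENCODE start in MEF (3194 bases, 18 of them in the body) and in MEF B12 (3443 bases, 66 in the body) but lay outside its RefSeq window.

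Further genes of the pathway were looked at as a group of 18, among them the WTAP partner *Cbll1*, the other YTH-domain readers, the IGF2BP readers, and methyltransferases for m6A on other RNAs. Of these, 17 were marked, and *Trmt112*, at 1.28 kb, was not. The density was at least 1.5-fold lower in OSKM than in MEF for 16 of the 18 and 1.5-fold higher in OSKM B12 than without the vitamin for 17, beside 67.6% and 93.6% of marked genes. The medians were −0.91 and 1.03, and those of marked genes −0.71 and 0.98. In the first comparison, *Pcif1*, the cap methyltransferase, had a log2 change of −0.58, just short of the fold, and *Fmr1*, an RNA-binding protein, had the lowest, −1.34. *Mettl5*, a methyltransferase of ribosomal RNA, was the only one past 1.5-fold between MEF and MEF B12, at 0.67. The covered share of *Prrc2a*, a proposed reader, was 86.7%, 88.3%, 82.0% and 87.5%, and like *Mettl3* it stayed nearly as covered in OSKM as elsewhere.

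The 3 marked genes whose densities lay closest to those of *Mettl3* over the 4 libraries, by Euclidean distance of log2 of density + 0.05, were *Eps15l1* (0.067), *Coq6* (0.083) and *Dapk3* (0.094). Closest to *Mettl14* were *Polr3k* (0.047), *Tpx2* (0.070) and *Ctdspl2* (0.074). The density of *Polr3k* was 0.251, 0.289, 0.0737 and 0.266 in MEF, MEF B12, OSKM and OSKM B12.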

How the data were processed

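The samples were 8 ChIP–seq libraries, 4 of H3K36me3 and 4 inputs, grouped by the condition in their labels. The authors used Bowtie 0.12.9 to align reads to mm10, and MACS2 2.2.6 to call broad peaks separately for every H3K36me3 library relative to the matching input, without pooling libraries. The q-value cut-offs were 0.05 and 0.1 in the file headers. The deposited pileup is a signal, the mean fragment coverage over a whole broad peak, so a peak that runs into a neighbouring gene averages over both. The authors' fold enrichment is a ratio of pileup to local input level, and significance is deposited as −log10 p-value and −log10 q-value. The labels name the antibody H3K3me3 in the protocol and H3K36m3 in the sample tag.

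Pileup was divided by the H3K36me3 tags per 1000000 and summed over gene bodies with Python 3.11, numpy 2.4.6 and pandas 2.3.3, after 1 to 16 peaks per list on unplaced scaffolds were left out. Gene bodies came from GENCODE M21. This arithmetic was checked base by base on simulated data. With 1 library per condition no test was possible: a change was called at 1.5-fold on log2(density + 0.05) and set beside the share of 9959 marked genes past the same fold. A gene without a peak had no enrichment detectable at 29046913 to 33399267 tags. The members, the further pathway genes and the alternatives were chosen with earlier results of these data known. Named were all members, further pathway genes, and the 3 marked genes closest to *Mettl3* and to *Mettl14*. Alternatives were stricter peak sets, equal peak numbers, merged peaks, other scalings and pseudocounts, other parts of the gene body, the covered share, and 2 added after seeing the data: the longest-spanning transcript, and only peaks with at least 50% of their bases in the gene.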

Additional observations from a re-analysis of the deposited data

How the results depend on the processing

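With 1 library per condition, these values have no replicate spread, and depth limits short genes most: *Rbm15* rests on 84 to 268 estimated tags. No paired analysis was possible because there is 1 H3K36me3 library per condition, and for the same reason no library could be left out. Of the alternatives, merged peaks read as density repeat the main values. Counting all genes in place of marked genes changes only the background. Neither could move a count of members, and both are included in the 17 alternatives. The count of members at least 1.5-fold lower in OSKM than in MEF was 8 and stayed within 1.5 times of that under 14 of 17 alternatives. It was 1 with libraries scaled to an equal median density over marked genes, 4 with a pseudocount of 0.2, and 0 over bases called in all 4 libraries. The count higher in OSKM B12 than in OSKM was 10 and stayed within 1.5 times under 15 of 17, with 0 under equal medians and 5 over bases called in all 4 libraries. The count higher in MEF B12 than in MEF was 1 (*Ythdf2*). It was 3 with peaks of −log10 q of at least 5 and 2 with fold enrichment in place of pileup. It was 0 with merged peaks read as covered share, with pileup not divided by tags, under equal medians, with a pseudocount of 0.2, in the part of the body past its midpoint, with the covered share, and over bases called in all 4 libraries. The cause was not tested, except that the scaling to equal medians removes by construction a shift shared by all genes.

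Among values of single members past 1.5-fold, 8 changed sign. Under equal medians, *Wtap* had a log2 change of 0.29 from MEF to OSKM, and from OSKM to OSKM B12 the values were −0.56 for *Mettl3*, −0.26 for *Wtap* and −0.049 for *Virma*. With only peaks that had at least 50% of their bases in the gene, *Mettl3* was at −2.61 from OSKM to OSKM B12, and *Rbm15b* at 1.86 from MEF to OSKM and −1.86 from OSKM to OSKM B12, since peaks running into neighbours drop out. With merged peaks read as covered share, *Mettl3* was at −0.014 from OSKM to OSKM B12. *Mettl14* kept its sign under all 16 alternatives in both comparisons with OSKM, from −1.70 to −0.47 and from 0.41 to 1.76. Merged peaks read as density, included among the 16, repeat the main values.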
